A study of Mus musculus with 12 samples.

Results

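The genes described here encode potassium channels and their auxiliary subunits in mouse dorsal root ganglia, the clusters of sensory neuron cell bodies beside the spinal cord. They were chosen by name: every gene whose symbol begins with Kcn, plus Dpp6 and Dpp10, with an RPKM (a read count set per gene length and per reads sequenced) of 1 or more in at least 3 of the 12 libraries. The files hold 99 genes with such names, and 68 passed this filter, among 14195 genes tested of 24060 named. The other 31 were not tested: 7 reached 1 RPKM in 1 or 2 libraries and 24 in none, and of these 24, 3 were listed at 0 in every library. Of the 68, 66 are channel or subunit genes or related coding genes and 2, Kcnq1ot1 and Kcnmb4os1, are noncoding RNAs that share a channel gene's name.

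Potassium channels let potassium leave the cell and so pull the membrane potential down, which sets the resting potential, ends each action potential and limits repetitive firing. Voltage-gated channels open on depolarization, calcium- and sodium-activated channels follow activity, inward rectifiers and leak channels hold the resting potential, and auxiliary subunits change the gating and surface number of the pores they bind. In sensory neurons the Kv1 channels delay firing onset, Kv4 channels carry the transient A-type current and Kv7 channels carry the M current, and loss of these currents is widely studied as a source of hyperexcitability after nerve damage.

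RNA was measured in ganglia of adult male C57BL/6J mice, 9 to 10 weeks old, in 4 groups of 3 libraries: naive mice, and mice 1, 3 and 7 days after spared nerve injury. In this model of neuropathic pain 2 branches of the sciatic nerve, the common peroneal and the tibial, are tied and severed while the sural branch is spared, so a ganglion holds both injured and uninjured neurons. The study set expression beside pain behaviour over time, and the comparisons here ask how each potassium channel gene differed from naive at each day. Sham surgery was not analysed here, and the effects of the operation and of the nerve lesion cannot be told apart. The labels do not say whether a library came from 1 animal or a pool or which side or lumbar level was taken, and the p-values therefore reflect only how these libraries vary, which may be technical.

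The promoter windows of 4 genes are printed because the first 3 had the largest falls at day 3 and the last had the fewest CpG dinucleotides among the genes that fell then. Each window runs from 250 bases before to 50 after the RefSeq gene start in build GRCm38.p6, 5′ to 3′ on the gene's strand, with each CpG in capitals. Dpp10 lies at chr1:124045510-124045809, minus strand. Kcnh7 lies at chr2:63184238-63184537, minus strand. Kcna2 lies at chr3:107101317-107101616, plus strand. Kcnmb1 lies at chr11:33962763-33963062, plus strand.
Dpp10: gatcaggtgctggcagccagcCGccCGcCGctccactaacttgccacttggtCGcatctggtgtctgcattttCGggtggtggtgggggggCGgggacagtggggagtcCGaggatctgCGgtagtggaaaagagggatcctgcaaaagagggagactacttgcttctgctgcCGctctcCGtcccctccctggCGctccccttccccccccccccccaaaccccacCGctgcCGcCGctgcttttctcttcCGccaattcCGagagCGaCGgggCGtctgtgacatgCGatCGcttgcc
Kcnh7: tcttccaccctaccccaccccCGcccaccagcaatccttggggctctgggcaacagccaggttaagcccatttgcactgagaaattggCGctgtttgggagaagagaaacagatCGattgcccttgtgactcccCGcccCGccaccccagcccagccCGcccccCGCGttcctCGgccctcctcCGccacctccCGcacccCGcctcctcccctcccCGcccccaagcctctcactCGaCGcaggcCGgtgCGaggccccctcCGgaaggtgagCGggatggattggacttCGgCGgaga
Kcna2: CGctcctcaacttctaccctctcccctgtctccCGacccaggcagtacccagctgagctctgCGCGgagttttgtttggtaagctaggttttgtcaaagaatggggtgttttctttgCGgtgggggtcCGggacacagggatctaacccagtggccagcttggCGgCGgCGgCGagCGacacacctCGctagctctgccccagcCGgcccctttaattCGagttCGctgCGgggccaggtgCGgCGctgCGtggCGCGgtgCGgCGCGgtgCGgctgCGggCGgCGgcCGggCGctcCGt
Kcnmb1: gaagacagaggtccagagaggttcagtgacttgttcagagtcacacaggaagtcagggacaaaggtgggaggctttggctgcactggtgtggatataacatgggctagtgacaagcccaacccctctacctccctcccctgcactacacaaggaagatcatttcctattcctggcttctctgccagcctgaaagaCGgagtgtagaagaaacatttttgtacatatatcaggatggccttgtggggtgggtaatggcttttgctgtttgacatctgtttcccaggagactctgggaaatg
These windows held 21, 21, 31 and 1 CpG and had a GC content of 65.0%, 67.7%, 66.7% and 49.7%, in the order printed. RefSeq windows matched 52 of the 68 genes. The 14 windows of 11 genes that fell at day 3 had a median of 16.5 CpG, the 63 windows of the other 41 matched genes a median of 9, and the windows of all genes tested a median of 20. The letters TGANTCA, the AP-1 motif, were searched on both strands and found in 0 of the 14 windows, in 3 of the 77 windows of the 52 genes (3.90%; in Kcnk2, Kcnip3 and Kcnip4) and in 680 of 13082 windows of genes tested (5.20%). A match describes letters only, and its absence says only that these letters are not in the window.

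Reads recovered from the steps of the RPKM values numbered 13138016 to 17241102 per library. They ranged from 1534 to 3939 per library for Dpp10 and from 1 to 14 for Kcnmb3, one of the lowest genes. Correlation of log2 values between libraries of 1 group was 0.953 to 0.976. The summed level of 12 neuron markers was 2796 to 3493 RPKM in naive libraries, 2225 to 3316 at day 1, 2357 to 2890 at day 3 and 1823 to 2706 at day 7. None of the 12 passed the test at day 1 or day 3 and 1, the neurofilament gene Nefh, fell at day 7 (0.599% of all genes tested). Macrophage markers summed to 38.2 to 47.5 RPKM in naive libraries and 39.9 to 44.1 at day 1. They summed to 66.8 to 102.6 RPKM at day 3 and 72.7 to 124.3 at day 7. Of the 8 tested, 3 rose at day 3 and at day 7, beside 3.71% and 2.32% of all genes tested. Muscle markers summed to 33.2 RPKM in naive replicate 1 and 25.2 in day 7 replicate 2 and to at most 5.65 in the other 10 libraries. Central nervous system glia markers summed to 4.85 RPKM or less in every library. The part of these shifts in the results below was not tested. In RNA from whole ganglia, fewer cells of a type and less RNA per cell cannot be told apart.

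In naive ganglia the potassium channel genes spanned a wide range of levels, given here per gene length as RPKM after scaling between libraries. Mean naive levels ran from 0.629 to 169.9 RPKM with a median of 9.15, beside a median of 6.18 over all genes tested. The 4 genes over 100 RPKM were Kcna1 (170 ± 24.7, SD, n = 3), which encodes a Kv1 subunit, its partner Kcna2 (153 ± 19.7), the delayed rectifier gene Kcnb2 (138 ± 13.7) and the erg channel gene Kcnh7 (121 ± 12.2). The ranges of neighbours in this order overlapped, from Kcna1 to Kcnh7, while every naive library had more Kcnh7 than any had of the next gene, Kcnip4 (65.7 ± 10.1). In all, 30 genes had a naive mean over 10 RPKM and 4 had a mean under 1.

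**Figure D1:**
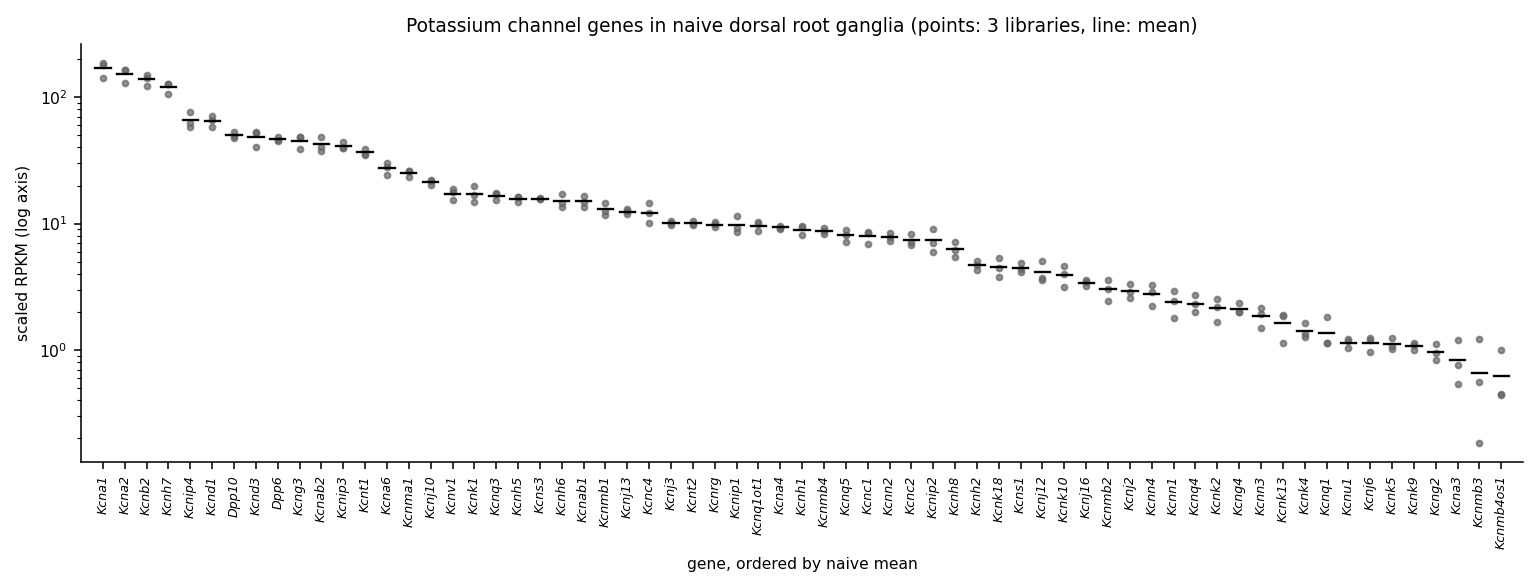
Levels of 65 of the 68 potassium channel genes in naive ganglia, in scaled RPKM on a log axis, with 1 point for each of 3 libraries and a line at their mean, ordered by mean. Kcna1, Kcna2, Kcnb2 and Kcnh7 lie above 100 RPKM, and 28 of those drawn lie above 10.

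The potassium channel genes that passed the test after injury all fell, and none rose at any day. At day 1, 2 of 68 fell, Dpp10 and Kcnj3; at day 3, 16 fell (23.5%), led by Dpp10, Kcnh7 and Kcna2; at day 7, 8 fell (11.8%), among them Kcnh7, Kcnh5, Kcnk1, Kcnmb1, Dpp10, Kcnip1 and Kcns3. Over all genes tested the share that fell was 0.831% at day 1, 1.92% at day 3 and 0.599% at day 7, and the share that rose was 2.61%, 3.71% and 2.32% (limma, Benjamini-Hochberg adjusted p under 0.05). At an unadjusted p under 0.05, 3 potassium channel genes were higher at day 1 (8.51% of all genes tested), 1 at day 3 (9.55%) and 0 at day 7 (7.42%), and voom on the recovered reads called no rise at any day. Kcnmb4 rose at day 3 under 2 of the 23 alternatives, in a fit of only those 2 groups (adjusted p = 0.0172) and without day 7 replicate 1 (adjusted p = 0.0462). The 3 comparisons share the naive libraries, so they are not independent of each other. Log2 fold changes of single genes are given below as value ± SE with limma's adjusted p.

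The median log2 fold change of the 68 genes was -0.19 at day 1, -0.29 at day 3 and -0.24 at day 7, beside -0.01, 0.00 and 0.00 over all genes tested. The log2 fold change was negative for 52, 56 and 56 genes, against 50.7%, 49.7% and 49.6% of all genes. At day 3 all 3 injured libraries lay below all 3 naive libraries for 30 genes (44.1%; 13.4% of all genes) and above them for 4, Kcnq3, Kcnma1, Kcnmb4 and Kcnk13 (5.88%; 13% of all genes). At day 1 these counts were 17 below (10.1% of all genes) and 2 above (11.8%), and at day 7 they were 24 below (7.15%) and 0 above (9.69%). The 16 genes that fell at day 3 all had an RPKM of 1 or more in every library, as did 56 of the 68, so none passed the filter only through the naive group.

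**Figure D2:**
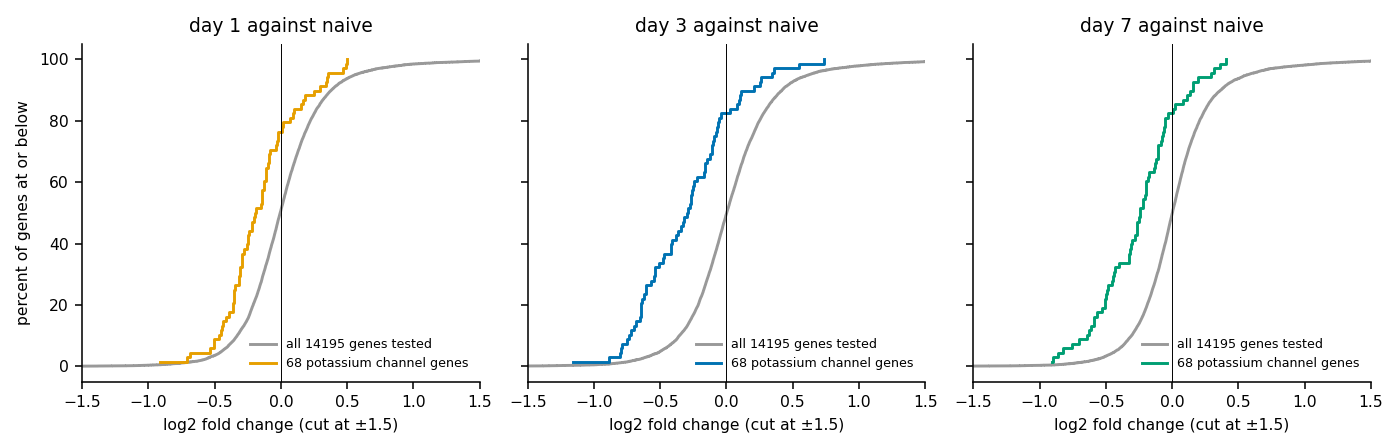
Cumulative share of genes (percent, vertical axis) by log2 fold change against naive (horizontal axis), with 1 panel per day, for the 68 potassium channel genes and for all 14195 genes tested. The curve of the potassium channel genes lies to the left of the other in each panel, with medians of -0.19, -0.29 and -0.24.

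The counts depended on single libraries. At day 3 the count of 16 became 10, 5 and 6 on leaving out naive replicates 1, 2 and 3. It became 8 and 7 on leaving out day 3 replicates 2 and 3. The 272 of all genes tested that fell at day 3 became 204, 114 and 115 without those naive libraries. Without those day 3 libraries they became 137 and 158. At day 7 the count of 8 became 4, 5 and 2 without naive replicates 1, 2 and 3. It became 5 without day 7 replicate 3 and 2 without both libraries high in muscle markers. In that last fit Kcnh7, Kcnh5, Kcnk1, Kcnmb1, Dpp10, Kcnip1 and Kcns3 were not called (limma adjusted p = 0.0658 to 0.226). Kcng4, which was not among the 8, was called in it. The 85 of all genes tested that fell at day 7 became 48, 25 and 19 without those naive libraries. They became 45 without day 7 replicate 3 and 13 without both libraries high in muscle markers. At day 1 the count of 2 became 1 without naive replicate 1, 2 or 3 or day 1 replicate 3. It became 0 without day 1 replicate 1. The 118 of all genes tested that fell at day 1 became 52, 47, 39, 72 and 36 in these fits, in the same order. With 2 libraries in 1 group the fit still takes a spread shared over all groups, most of which then comes from the other groups.

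**Figure D3:**
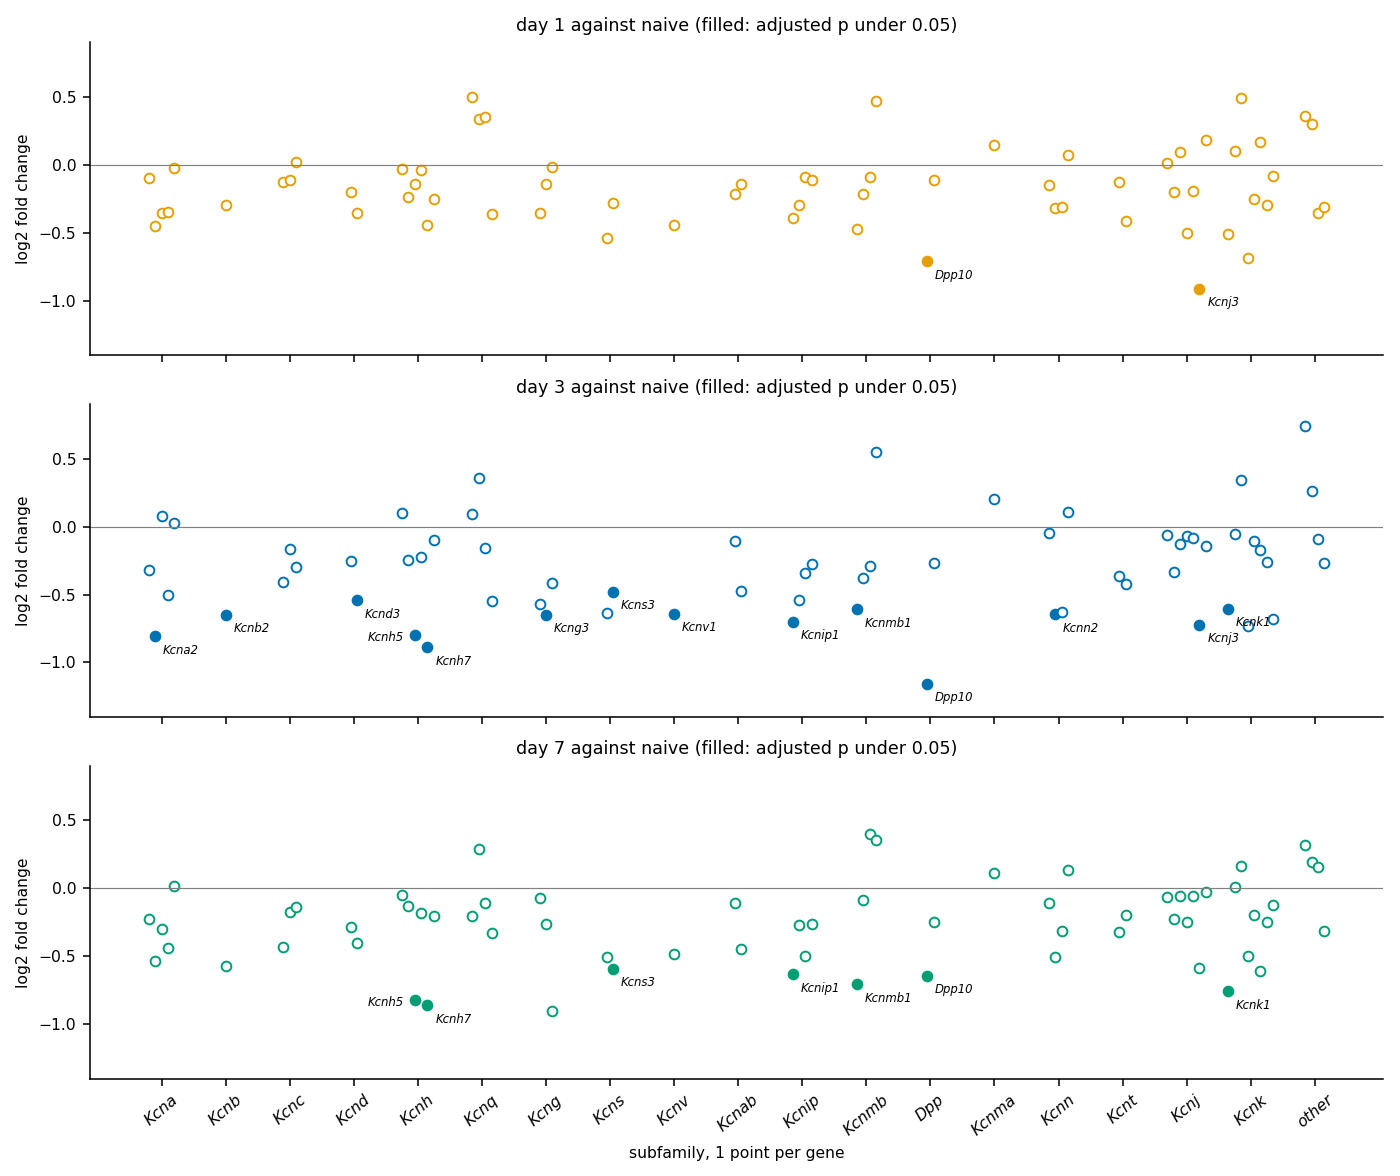
Log2 fold change against naive (vertical axis) of 65 potassium channel genes, grouped by subfamily (horizontal axis), with 1 panel per day and filled points for genes with an adjusted p under 0.05. All filled points lie below 0: 2 at day 1, 14 at day 3 and 7 at day 7.

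Among the 24 voltage-gated pore-forming genes, 0 fell at day 1, 7 at day 3 and 3 at day 7. Of all genes tested, 0.831%, 1.92% and 0.599% fell at these days. The median log2 fold changes of the 24 were -0.17, -0.28 and -0.25. In the Kcna (Kv1) subfamily 1 of 5 genes fell, at day 3. It was Kcna2, whose product sits beside the nodes of myelinated axons and damps excitability. Kcna2 had 130, 163 and 165 RPKM in the naive libraries, 115, 127 and 92.5 at day 1, 95.4, 80.4 and 84.3 at day 3 and 132, 97.3 and 89.3 at day 7. All day 3 libraries lay below all naive libraries, while day 7 replicate 1 reached the naive range. In Kcna2 the log2 fold change was -0.45 ± 0.17, adjusted p = 0.196 at day 1, -0.81 ± 0.17, adjusted p = 0.00989 at day 3 and -0.53 ± 0.17, adjusted p = 0.129 at day 7. For Kcna2, the day 3 call ended on leaving out in turn naive replicate 3 and day 3 replicate 2 (adjusted p = 0.0531 to 0.0572). Kcna1 had 142, 187 and 181 RPKM in the naive libraries, 171, 172 and 133 at day 1, 146, 126 and 134 at day 3 and 177, 138 and 123 at day 7. Naive and injured libraries of Kcna1 overlapped at every day, and its log2 fold change at day 3 was -0.32 ± 0.16, adjusted p = 0.331. Kcna4, which encodes the A-type member of the subfamily, missed the threshold at day 3 (-0.51 ± 0.15, adjusted p = 0.0726), although its naive libraries, at 9.08, 9.28 and 9.63 RPKM, lay above all injured ones. At day 3 Kcna4 was called under 4 of the 23 alternatives, among them voom (adjusted p = 0.0286). Kcna6, singled out after its values were seen, had means of 27.7 ± 3.02 RPKM in naive and 28.3 ± 4.74 at day 3, a log2 fold change of 0.02 ± 0.15, adjusted p = 0.959, and 39.6% of its exon bases are shared with another annotated gene. Kcna3, near the filter, had 0.834 ± 0.334 RPKM in naive and no change that passed.

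Kcnb2, which encodes a Kv2 delayed rectifier that repolarizes the cell body, fell at day 3. Kcnb2 had 123, 142 and 150 RPKM in the naive libraries, 111, 131 and 97.1 at day 1, 92.4, 84.7 and 85.6 at day 3 and 117, 78.8 and 85.8 at day 7. No day 3 library of Kcnb2 reached the naive range, and day 7 replicate 1 came close to the lowest naive library. In Kcnb2 the log2 fold change was -0.65 ± 0.16, adjusted p = 0.0244 at day 3 and -0.57 ± 0.16, adjusted p = 0.0753 at day 7. For Kcnb2, the day 3 call ended on leaving out in turn naive replicates 2 and 3 and day 3 replicates 2 and 3 (adjusted p = 0.0841 to 0.115).

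The silent modulatory subunits form no channel alone but join Kv2 pores and change their gating. Of 6 such genes tested (Kcng2, Kcng3, Kcng4, Kcns1, Kcns3 and Kcnv1), 0 fell at day 1, 3 at day 3 and 1 at day 7. The shares over all genes tested were 0.831%, 1.92% and 0.599%. The median log2 fold changes of the 6 were -0.32, -0.60 and -0.49, and all 6 were negative at every day. All 6 had every day 3 library below every naive library, as did 13.4% of all genes tested. Kcns3 had 15.5, 16.04 and 15.8 RPKM in the naive libraries, 12.7, 11.7 and 14.5 at day 1, 10.1, 12.5 and 11.1 at day 3 and 9.29, 11.03 and 10.7 at day 7. Naive values of Kcns3 lay close together, and no injured library reached them. In Kcns3 the log2 fold change was -0.28 ± 0.12, adjusted p = 0.276 at day 1, -0.48 ± 0.12, adjusted p = 0.0299 at day 3 and -0.59 ± 0.12, adjusted p = 0.0130 at day 7. For Kcns3, the day 3 call ended on leaving out in turn naive replicates 1, 2 and 3 and day 3 replicates 1 and 3, without scaling and without both libraries high in muscle markers (adjusted p = 0.0704 to 0.120). For Kcns3, the day 7 call ended on leaving out in turn naive replicates 2 and 3, without scaling and without both libraries high in muscle markers (adjusted p = 0.0604 to 0.0752).

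Kcng3 had 38.8, 48.03 and 48.8 RPKM in the naive libraries, 40.4, 49.4 and 33.8 at day 1, 30.4, 29.9 and 25.5 at day 3 and 41.1, 31.3 and 40.6 at day 7. All day 3 libraries of Kcng3 lay below the naive ones, while some day 1 and day 7 libraries lay within the naive range. In Kcng3 the log2 fold change was -0.65 ± 0.16, adjusted p = 0.0248 at day 3 and -0.26 ± 0.16, adjusted p = 0.544 at day 7. For Kcng3, the day 3 call ended on leaving out in turn naive replicates 2 and 3 and day 3 replicates 2 and 3 and without the variance trend and robust moderation (adjusted p = 0.0511 to 0.113). Kcnv1 had 15.3, 18.6 and 17.9 RPKM in the naive libraries, 12.1, 14.1 and 11.6 at day 1, 10.7, 10.8 and 11.1 at day 3 and 14.6, 12.6 and 9.77 at day 7. No injured library of Kcnv1 reached the naive range. The log2 fold change of Kcnv1 was -0.64 ± 0.14, adjusted p = 0.0142 at day 3 and -0.48 ± 0.14, adjusted p = 0.0952 at day 7. For Kcnv1, the day 3 call ended on leaving out in turn naive replicates 2 and 3 and day 3 replicate 2 (adjusted p = 0.0551 to 0.0683). Kcng4 was lowest at day 7, with 0.609, 1.54 and 0.707 RPKM against 2.34, 2.01 and 2.02 in naive, and missed the threshold (-0.90 ± 0.23, adjusted p = 0.0513). Voom on the recovered reads called it at day 7 (adjusted p = 0.0146), as did 4 other alternatives of 22. Kcng2, near the filter, had 0.965 ± 0.142 RPKM in naive and 0.492 ± 0.133 at day 3 (log2 fold change -0.57 ± 0.28, adjusted p = 0.307).

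**Figure D4:**
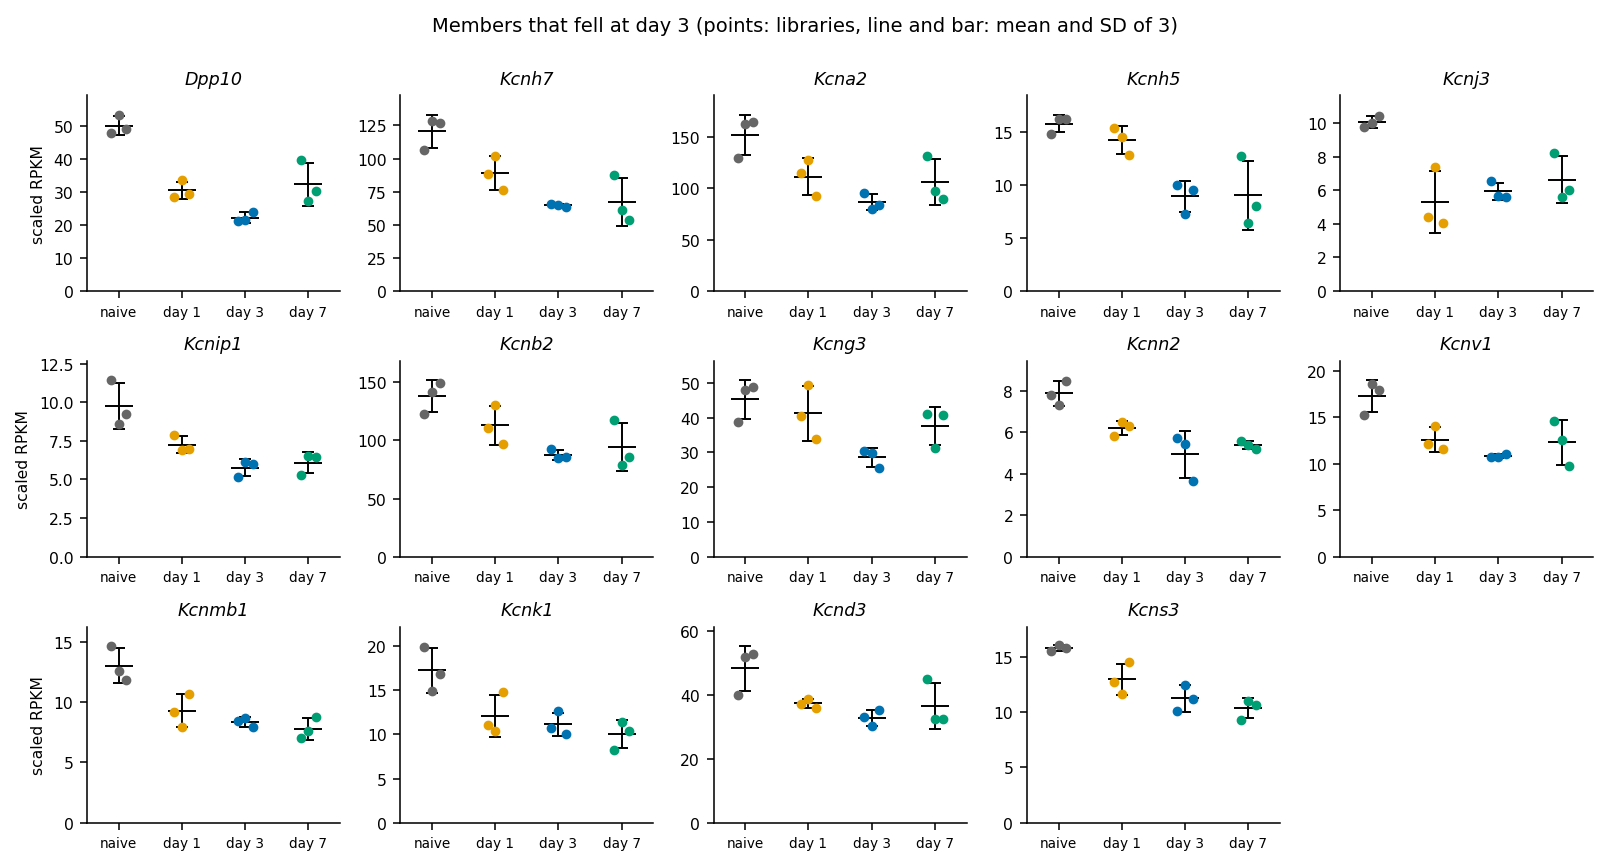
Scaled RPKM (vertical axis, from 0) in each library of 14 genes that fell at day 3, by group (horizontal axis), with a line at the mean and a bar for the SD of 3 libraries. Dpp10 is lowest at day 3, at 21.2 to 23.99 RPKM against 47.9 to 53.3 in naive, while Kcns3 has its lowest mean at day 7.

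Kcnc4, which encodes a Kv3 channel, a type of fast delayed rectifier that keeps action potentials short, had 12.2 ± 2.28 RPKM in naive and 9.75 ± 0.541 at day 3. It did not pass the test (log2 fold change -0.30 ± 0.14, adjusted p = 0.291).

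In the Kcnh subfamily (eag, erg and elk channels) 2 of 6 genes fell at day 3 and at day 7, Kcnh7 and Kcnh5. Of all genes tested, 1.92% and 0.599% fell at these days. Kcnh7 encodes an erg channel, a type that closes slowly after a spike and restrains firing. Kcnh7 had 106, 128 and 127 RPKM in the naive libraries, 88.7, 102 and 76.2 at day 1, 65.6, 64.8 and 63.8 at day 3 and 87.7, 61.1 and 53.4 at day 7. All 9 injured libraries lay below the 3 naive libraries, with day 7 replicate 1 at the upper end of the day 7 group. In Kcnh7 the log2 fold change was -0.44 ± 0.17, adjusted p = 0.211 at day 1, -0.89 ± 0.17, adjusted p = 0.00526 at day 3 and -0.86 ± 0.17, adjusted p = 0.00965 at day 7. For Kcnh7, the day 3 call held under all 23 alternative settings. For Kcnh7, the day 7 call ended on leaving out naive replicate 3, without both libraries high in muscle markers and in a fit of only those 2 groups (adjusted p = 0.0552 to 0.0658). Kcnh5 had 14.9, 16.3 and 16.2 RPKM in the naive libraries, 15.4, 14.6 and 12.8 at day 1, 10.00, 7.24 and 9.58 at day 3 and 12.7, 6.43 and 7.99 at day 7. Kcnh5, which encodes an eag channel, overlapped naive at day 1 and lay below it at day 3 and day 7. In Kcnh5 the log2 fold change was -0.15 ± 0.19, adjusted p = 0.811 at day 1, -0.80 ± 0.19, adjusted p = 0.0260 at day 3 and -0.82 ± 0.19, adjusted p = 0.0331 at day 7. For Kcnh5, the day 3 call ended on leaving out in turn naive replicates 1, 2 and 3 and day 3 replicates 2 and 3, without the filter on low values and without the variance trend and robust moderation (adjusted p = 0.0524 to 0.127). For Kcnh5, the day 7 call ended on leaving out in turn naive replicates 1, 2 and 3, day 1 replicate 1 and day 7 replicates 2 and 3, without the filter on low values, without the variance trend and robust moderation, without both libraries high in muscle markers and in a fit of only those 2 groups (adjusted p = 0.0506 to 0.226). The other 4, Kcnh1, Kcnh2, Kcnh6 and Kcnh8, had log2 fold changes from -0.25 to 0.10 over the 3 days, and none passed.

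The Kcnd (Kv4) channels carry the A-type current together with the membrane subunits Dpp6 and Dpp10 and the calcium-binding Kcnip subunits. Kcnd3 fell at day 3 and Kcnd1 did not pass. Kcnd3 had 40.1, 52.1 and 52.9 RPKM in the naive libraries, 37.2, 38.9 and 36.1 at day 1, 33.03, 30.3 and 35.2 at day 3 and 45.00, 32.5 and 32.5 at day 7. Naive replicate 1 was the lowest naive library, and day 7 replicate 1 lay above it. The log2 fold change of Kcnd3 was -0.54 ± 0.14, adjusted p = 0.0406 at day 3 and -0.40 ± 0.14, adjusted p = 0.204 at day 7. For Kcnd3, the day 3 call ended on leaving out in turn naive replicates 2 and 3, day 1 replicate 1 and day 3 replicates 1, 2 and 3, without the filter on low values and without the variance trend and robust moderation (adjusted p = 0.0631 to 0.179). Kcnd1 had 64.8 ± 6.39 RPKM in naive and 54.2 ± 3.81 at day 3 (log2 fold change -0.25 ± 0.12, adjusted p = 0.309).

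Dpp10 had the largest fall of all 68 genes at day 3 and was the one gene called at day 1, day 3 and day 7. Dpp10 had 47.9, 53.3 and 49.2 RPKM in the naive libraries, 28.5, 33.5 and 29.2 at day 1, 21.2, 21.5 and 23.99 at day 3 and 39.6, 27.1 and 30.2 at day 7. All 9 injured libraries lay below the naive libraries, lowest at day 3, when the mean was 44.4% of the naive mean. In Dpp10 the log2 fold change was -0.71 ± 0.13, adjusted p = 0.00802 at day 1, -1.16 ± 0.13, adjusted p = 0.000103 at day 3 and -0.64 ± 0.13, adjusted p = 0.0164 at day 7. For Dpp10, the day 1 call ended on leaving out day 1 replicate 1 (adjusted p = 0.0558). For Dpp10, the day 3 call held under all 23 alternative settings. For Dpp10, the day 7 call ended on leaving out in turn naive replicates 2 and 3 and day 7 replicates 2 and 3, without both libraries high in muscle markers and in a fit of only those 2 groups (adjusted p = 0.0631 to 0.147). Dpp6 had 48.7, 45.7 and 45.4 RPKM in the naive libraries, 42.1, 37.1 and 50.9 at day 1, 36.5, 39.5 and 40.2 at day 3 and 35.2, 38.1 and 45.04 at day 7. Dpp6, its paralog and at a similar naive level, overlapped naive at day 1, was lower in all day 3 and day 7 libraries and passed at no day (log2 fold change at day 3 -0.27 ± 0.13, adjusted p = 0.309). The difference between the 2 genes was not tested.

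Among the 4 Kcnip genes, Kcnip1 fell at day 3 and day 7 (1.92% and 0.599% of all genes tested). Kcnip1 had 11.4, 8.59 and 9.22 RPKM in the naive libraries, 7.87, 6.90 and 6.99 at day 1, 5.17, 6.13 and 6.01 at day 3 and 5.30, 6.52 and 6.47 at day 7. No injured library of Kcnip1 reached the naive range. In Kcnip1 the log2 fold change was -0.39 ± 0.14, adjusted p = 0.176 at day 1, -0.70 ± 0.14, adjusted p = 0.00770 at day 3 and -0.63 ± 0.14, adjusted p = 0.0225 at day 7. For Kcnip1, the day 3 call held under all 23 alternative settings. For Kcnip1, the day 7 call ended on leaving out in turn naive replicates 1 and 3 and day 7 replicate 1, without scaling, without both libraries high in muscle markers and in a fit of only those 2 groups (adjusted p = 0.0642 to 0.170). Kcnip4, the most abundant of the 4, had 65.7 ± 10.1 RPKM in naive and 54.1 ± 7.57 at day 3 (log2 fold change -0.28 ± 0.15, adjusted p = 0.359). The 4 genes had median log2 fold changes of -0.20, -0.44 and -0.38 at days 1, 3 and 7.

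The other auxiliary subunits are the Kcnab proteins, which bind Kv1 channels from inside the cell, and the Kcnmb proteins, which tune the large-conductance calcium-activated channel. Neither Kcnab gene passed: Kcnab2 had 42.4 ± 5.77 RPKM in naive and 30.4 ± 4.08 at day 3 (log2 fold change -0.47 ± 0.18, adjusted p = 0.152). Of the 4 Kcnmb genes, Kcnmb1 fell at day 3 and day 7 (1.92% and 0.599% of all genes tested). Kcnmb1 had 14.7, 12.6 and 11.8 RPKM in the naive libraries, 9.22, 7.93 and 10.7 at day 1, 8.42, 8.69 and 7.93 at day 3 and 7.00, 7.58 and 8.79 at day 7. All injured libraries lay below all naive ones. In Kcnmb1 the log2 fold change was -0.47 ± 0.14, adjusted p = 0.0822 at day 1, -0.61 ± 0.14, adjusted p = 0.0159 at day 3 and -0.71 ± 0.14, adjusted p = 0.00932 at day 7. For Kcnmb1, the day 3 call ended on leaving out in turn naive replicates 1 and 2 and day 3 replicates 1 and 3, without scaling and without both libraries high in muscle markers (adjusted p = 0.0507 to 0.0893). For Kcnmb1, the day 7 call ended on leaving out naive replicate 1, without scaling and without both libraries high in muscle markers (adjusted p = 0.0539 to 0.148). Kcnmb1 (chr11:33963013-33973641, plus strand, mm10, GENCODE M21) lies inside Kcnip1 (chr11:33629339-33993152, minus strand) on the opposite strand, with no shared exon bases, and the strandedness of the counting is not stated, so reads from introns of the one could be taken for the other.

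Kcnmb4, the Kcnmb subunit known from neurons, had higher mean levels at every day after injury without passing. Kcnmb4 had 9.27, 8.22 and 8.78 RPKM in the naive libraries, 11.5, 9.89 and 16.3 at day 1, 11.97, 14.6 and 12.7 at day 3 and 8.34, 13.00 and 13.5 at day 7. All day 1 and day 3 libraries lay above the naive ones, and day 7 replicate 1 fell within the naive range. In Kcnmb4 the log2 fold change was 0.47 ± 0.19, adjusted p = 0.249 at day 1, 0.55 ± 0.19, adjusted p = 0.120 at day 3 and 0.36 ± 0.19, adjusted p = 0.475 at day 7. Other annotated genes share 31.5% of the exon bases of Kcnmb4. The noncoding RNA Kcnmb4os1, which shares 43.1% of its exon bases with Kcnmb4, had the highest log2 fold change of the 68 genes at day 3 (0.74 ± 0.42, adjusted p = 0.401), at 1.78, 2.44 and 0.426 RPKM against 0.442, 0.998 and 0.447 in naive. Kcnmb3, near the filter, had 0.185, 1.22 and 0.561 RPKM in the naive libraries, and its log2 fold change at day 7 was 0.40 ± 0.42, adjusted p = 0.798.

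Kcnq3 encodes a Kv7 subunit of the M current, a slow brake on repetitive firing. Kcnq3 had 15.3, 17.4 and 17.1 RPKM in the naive libraries, 22.8, 25.8 and 15.99 at day 1, 22.9, 21.5 and 19.9 at day 3 and 25.6, 20.9 and 15.9 at day 7. It was above naive in all 3 day 3 libraries, and its log2 fold change then was 0.36 ± 0.18, adjusted p = 0.325. Kcnq5, which also contributes to the M current and was singled out after its values were seen, had a log2 fold change of -0.54 ± 0.16, adjusted p = 0.0584 at day 3. It passed then without scaling (adjusted p = 0.0218), with voom (adjusted p = 0.0170) and in a fit of only those 2 groups (adjusted p = 0.0276). Kcnq1, at 1.37 ± 0.405 RPKM in naive, had the highest log2 fold change of the 68 genes at day 1 (0.50 ± 0.24, adjusted p = 0.365).

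**Figure D5:**
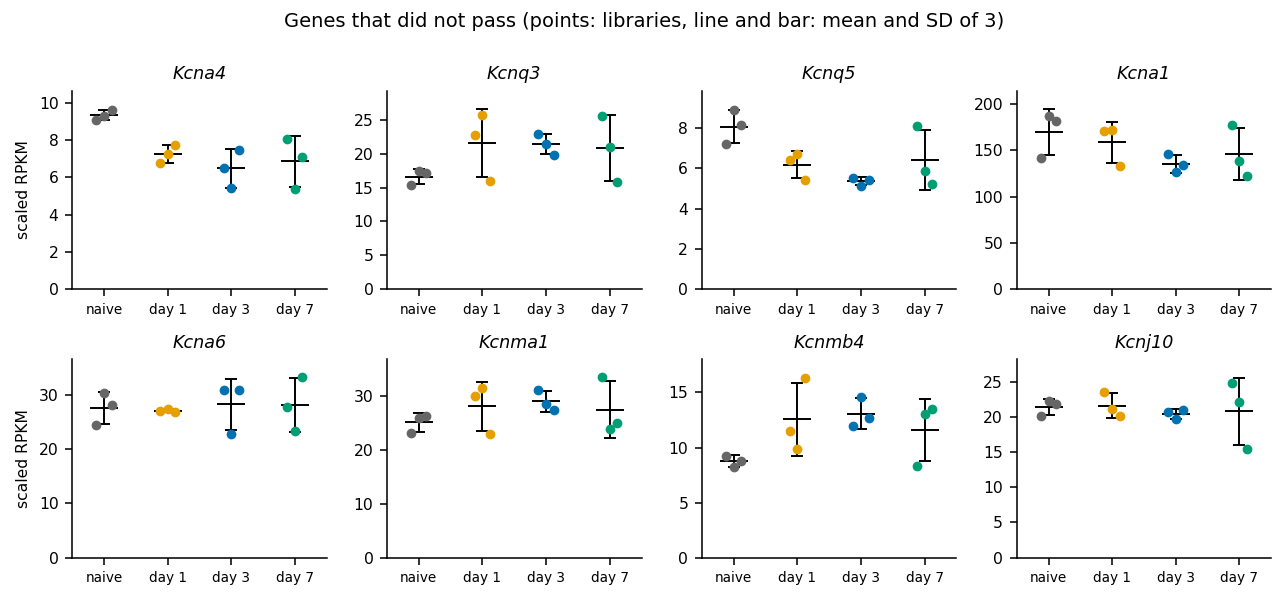
Scaled RPKM (vertical axis, from 0) in each library of 8 potassium channel genes that did not pass at any day, by group (horizontal axis), with a line at the mean and a bar for the SD of 3 libraries. Kcnmb4 lies at 8.22 to 9.27 RPKM in naive and 11.97 to 14.6 at day 3, and Kcnj10 at 20.1 to 22.2 in naive and 19.7 to 20.9 at day 3.

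The 7 genes for calcium- or sodium-activated pores had median log2 fold changes of -0.15, -0.36 and -0.20 at days 1, 3 and 7. At day 1 and day 7, 0 fell (0.831% and 0.599% of all genes tested), and at day 3, 1 fell (1.92%). It was Kcnn2, which encodes a small-conductance channel that shapes the potential after a spike. Kcnn2 had 7.81, 7.31 and 8.49 RPKM in the naive libraries, 5.83, 6.51 and 6.30 at day 1, 5.72, 5.44 and 3.63 at day 3 and 5.60, 5.40 and 5.20 at day 7. The injured libraries all lay below the naive ones, lowest in day 3 replicate 3. In Kcnn2 the log2 fold change was -0.64 ± 0.15, adjusted p = 0.0229 at day 3 and -0.50 ± 0.15, adjusted p = 0.114 at day 7. For Kcnn2, the day 3 call ended on leaving out in turn naive replicates 1, 2 and 3 and day 3 replicate 3 and without both libraries high in muscle markers (adjusted p = 0.0520 to 0.107). Kcnma1 had 23.2, 26.04 and 26.3 RPKM in the naive libraries, 29.99, 31.5 and 22.95 at day 1, 31.2, 28.7 and 27.4 at day 3 and 33.6, 23.9 and 25.1 at day 7. Kcnma1, the pore of the large-conductance calcium-activated channel, lay above naive in all 3 day 3 libraries without passing (log2 fold change 0.21 ± 0.15, adjusted p = 0.530). Kcnt1, a sodium-activated channel gene, had 36.5 ± 1.97 RPKM in naive and 28.3 ± 0.413 at day 3 (-0.36 ± 0.13, adjusted p = 0.128). It passed only in a fit of those 2 groups alone (adjusted p = 0.0342).

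Of the 7 inward rectifier (Kcnj) genes, 1 fell, Kcnj3, at day 1 and day 3 (0.831% and 1.92% of all genes tested). Kcnj3 encodes a subunit of the channels that G protein-coupled receptors open to quiet neurons. Kcnj3 had 9.79, 10.03 and 10.5 RPKM in the naive libraries, 4.40, 7.42 and 4.08 at day 1, 6.55, 5.65 and 5.61 at day 3 and 8.24, 5.61 and 6.05 at day 7. All injured libraries lay below the naive ones, which lay close together, and day 1 held the lowest values. In Kcnj3 the log2 fold change was -0.91 ± 0.19, adjusted p = 0.0170 at day 1, -0.72 ± 0.19, adjusted p = 0.0425 at day 3 and -0.59 ± 0.19, adjusted p = 0.155 at day 7. For Kcnj3, the day 1 call ended on leaving out in turn naive replicates 1, 2 and 3 and day 1 replicates 1 and 3 and without both libraries high in muscle markers (adjusted p = 0.0531 to 0.0996). For Kcnj3, the day 3 call ended on leaving out in turn naive replicates 1, 2 and 3, day 1 replicate 1, day 3 replicates 1, 2 and 3 and day 7 replicate 3, without the filter on low values, without the variance trend and robust moderation and without both libraries high in muscle markers (adjusted p = 0.0521 to 0.142). Another annotated gene shares 31.1% of its exon bases. Kcnj10, the inward rectifier of satellite glia, had 21.4 ± 1.14 RPKM in naive, 21.6 ± 1.78 at day 1, 20.5 ± 0.681 at day 3 and 20.8 ± 4.82 at day 7. Its log2 fold change at day 3 was -0.06 ± 0.15, adjusted p = 0.877.

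The 8 leak channel (Kcnk) genes encode pores that stay open near rest. Kcnk1 fell at day 3 and day 7 (1.92% and 0.599% of all genes tested). Kcnk1 had 19.97, 14.96 and 16.8 RPKM in the naive libraries, 11.04, 10.3 and 14.8 at day 1, 10.7, 12.7 and 10.1 at day 3 and 8.28, 11.4 and 10.4 at day 7. All injured libraries lay below the naive ones, with day 1 replicate 3 the nearest. In Kcnk1 the log2 fold change was -0.51 ± 0.16, adjusted p = 0.125 at day 1, -0.61 ± 0.16, adjusted p = 0.0427 at day 3 and -0.76 ± 0.16, adjusted p = 0.0192 at day 7. For Kcnk1, the day 3 call ended on leaving out in turn naive replicates 1, 2 and 3, day 1 replicate 1, day 3 replicates 1, 2 and 3 and day 7 replicate 3, without the filter on low values, without scaling, without the variance trend and robust moderation and without both libraries high in muscle markers (adjusted p = 0.0524 to 0.158). For Kcnk1, the day 7 call ended on leaving out in turn naive replicates 1 and 3 and day 7 replicates 1 and 3, without scaling and without both libraries high in muscle markers (adjusted p = 0.0504 to 0.105). Kcnk18, which encodes the TRESK channel of nociceptors, missed the threshold at every day. Kcnk18 had 4.43, 3.76 and 5.35 RPKM in the naive libraries, 1.94, 3.92 and 2.22 at day 1, 2.26, 2.44 and 2.79 at day 3 and 3.71, 2.94 and 2.53 at day 7. Day 1 replicate 2 fell within the naive range and all day 3 libraries lay below it. In Kcnk18 the log2 fold change was -0.69 ± 0.22, adjusted p = 0.125 at day 1 and -0.73 ± 0.22, adjusted p = 0.0715 at day 3, and voom called it at both (adjusted p = 0.0441 and 0.0272). Counting voom, 2 of 22 alternatives called Kcnk18 at day 1 and 3 of 22 at day 3. Kcnk13, a channel gene also known from microglia and macrophages, had a log2 fold change of 0.49 ± 0.21, adjusted p = 0.284 at day 1. Kcnk5, near the filter, had 1.12 ± 0.116 RPKM in naive and no change that passed. Outside all these subfamilies were 4 other genes, among them Kcnrg, a regulator of Kv assembly (9.83 ± 0.456 RPKM in naive). None of these 4 passed.

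Between days after injury no potassium channel gene passed. From day 1 to day 3 the count was 0 (0.507% of all genes tested), with 11 at an unadjusted p under 0.05 (9.43% of all genes), of which 10 were lower at day 3, and voom called 0. From day 3 to day 7 it was 0 (0% of all genes tested), with 2 at an unadjusted p under 0.05 (5.06% of all genes), both higher at day 7, and voom called 0. From day 1 to day 7 it was 0 (0.972% of all genes tested), with 10 at an unadjusted p under 0.05 (10.4% of all genes), of which 9 were lower at day 7. Voom called 3 in that comparison, all lower at day 7, among them Kcng4 (adjusted p = 0.0280) and Kcnh5 (adjusted p = 0.0298). A test over all 4 groups together called 11 of 68 (16.2%; 4.78% of all genes tested), among them Dpp10, Kcna2, Kcnh5, Kcnh7, Kcnip1, Kcnj3, Kcnk1, Kcnmb1 and Kcns3.

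Day 7 replicate 1 was the highest of its group for 11 of the 16 genes that fell at day 3 and for 31 of all 68. Naive replicate 1 was the lowest of its group for 12 of the 16 and for 40 of all 68. The shares over all genes tested were not counted. Within every group the summed neuron markers ran in the opposite order to the summed level of the 16 genes. In replicates 1, 2 and 3 the naive libraries had 3493, 2972 and 2796 RPKM of neuron markers and 649, 763 and 765 RPKM of the 16 genes. At day 1 the neuron markers summed to 2657, 2225 and 3316 and the 16 genes to 552, 619 and 492. At day 3 the neuron markers summed to 2357, 2890 and 2786 and the 16 genes to 444, 416 and 422. At day 7 the neuron markers summed to 1823, 2706 and 2467 and the 16 genes to 585, 435 and 440. In each group the library with the most neuron marker RNA had the least of the 16 genes, and the one with the least had the most. Myelinating Schwann cell markers summed to 1471, 1098 and 1203 RPKM in naive and 1117, 951 and 1419 at day 1. At day 3 they summed to 1188, 1525 and 1394, and at day 7 to 952, 1466 and 1478. They too ran fully opposite to the 16 genes at day 1 and day 3. Satellite glia markers did so at day 1 (350, 308 and 430 RPKM) and day 7 (360, 526 and 442 RPKM). Without day 7 replicate 1, 11 genes passed at day 7 in place of 8, with Kcna2, Kcnb2, Kcnd3 and Kcnv1 among those added. The part of the neuron and glia markers in this was not tested.

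Partners that carry no Kcn name were tested from a list of 35 scaffolds, adhesion molecules and regulators, of which 32 passed the filter. At day 1, 0 of the 32 passed in limma, and 6 were lower at an unadjusted p under 0.05, beside 6.45% of all genes tested. At day 3, 4 fell (12.5%, beside 1.92% of all genes tested) and none rose (3.71% of all genes tested), with a median log2 fold change of -0.23. The 4 included Cntnap2, which clusters Kv1 channels beside the node (log2 fold change -0.59 ± 0.13, adjusted p = 0.0137), and the axonal adhesion gene Cntn1 (-0.56 ± 0.15, adjusted p = 0.0452). The others were the secreted Lgi3 (-0.86 ± 0.19, adjusted p = 0.0128) and the ubiquitin ligase Nedd4l (-0.49 ± 0.12, adjusted p = 0.0209). At day 7, 1 fell, Lgi3 (-0.88 ± 0.19, adjusted p = 0.0170), where 0.599% of all genes fell. Of 12 tested genes of the sodium-potassium pump, which restores the potassium gradient, 1 rose at day 1, Atp1b2 (log2 fold change 0.71 ± 0.14, adjusted p = 0.0115), where 2.61% of all genes rose. No pump gene passed at day 3 or day 7. At an unadjusted p under 0.05 there were 3 pump genes at day 3 (17.8% of all genes tested) and 1 at day 7 (13%).

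At the edge of the filter, Kcna3, Kcng2 and Kcnmb3 passed in 3 libraries, with a third-highest deposited value of 1.00, 1.06 and 1.05 RPKM, and Kcnk5 and Kcnmb4os1 in 4. Just outside it were Kcnj15 (0.895), Kcnk12 (0.885), Kcnd2 (0.870), Kcnj8 (0.838), Kcnd3os (0.820), Kcnk3 (0.766) and Kcne4 (0.616). None of the 5 Kcne genes in the files reached the filter, nor did the single Kcnf gene.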

How the data were processed

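RNA-seq of 12 ganglion libraries, 3 per group, was analysed, and sample titles gave the groups and replicate numbers. RNA was amplified from low input, per the labels' protocols. The authors used STAR, HTSeq, limma, edgeR and bcl2fastq 2.17 with build mm10, in roles and order not listed, per the submitters' processing notes. Annotation, counting options and strandedness: not given in the sources used here. Values the authors deposited were read as RPKM, a unit inferred from the values, since no header names it. Whole reads were recovered for 21596 of 21597 detected genes (100.0%; tolerance 0.05 reads), giving 13138016 to 17241102 reads per library.

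Libraries were scaled by trimmed means of log ratios (30% of log ratios and 5% of average levels trimmed at each end) and taken as log2(RPKM + 0.5). Fold changes are on that scale and so run small for low genes. Printed levels are scaled RPKM, and the filter used deposited RPKM. limma 3.58.1 in R 4.3.3, with statmod 1.5.0, fitted 4 group means to 14195 genes (8 residual degrees of freedom, variance trend, robust moderation). Two-sided p-values were adjusted by Benjamini-Hochberg over the 14195 genes, the threshold was 0.05, and errors of fold changes are SE. The fit was tested on simulated data with the same spread set for every gene, which these libraries need not share. No result here rests on that test. The 23 alternatives are other pseudocounts, filters, scalings, moderation, voom, a replicate block, fits of 2 groups, and libraries left out.

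The genes, lists and tests were chosen with earlier results of these data known. Named are genes called in any comparison, the most abundant of each subfamily, a set list, the 3 highest and lowest fold changes at each day, and genes nearest the filter; some genes this rule takes in are counted but not reported here singly. Kcnq5, Kcna6 and Kcnn3 are named after their values were seen. Protein sequences were not used here. Promoter windows are from RefSeq.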

Additional observations from a re-analysis of the deposited data

How the results depend on the processing

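No potassium channel gene called in any comparison reversed direction under the 23 alternatives. In the main fit 489 of all genes tested were called at day 1, 799 at day 3, 415 at day 7 and 679 over all 4 groups. Leaving out 1 library at a time gave 0 to 3 calls of potassium channel genes at day 1, 5 to 19 at day 3 and 2 to 11 at day 7. It gave 0 to 1 from day 1 to day 3, 0 from day 3 to day 7, 0 to 2 from day 1 to day 7 and 2 to 13 over all 4 groups. Voom on recovered reads called 4 at day 1, 20 at day 3, 12 at day 7, 3 from day 1 to day 7 and 15 over all 4 groups; the 4 added at day 3 were Kcna4, Kcnk18, Kcnn3 and Kcnq5. With voom 618 of all genes were called at day 1, 1043 at day 3, 547 at day 7 and 933 over all 4 groups. Without the filter on low values 6 potassium channel genes were called over all 4 groups (582 of all genes). Without trend and robust moderation 5 were called (593 of all genes). A fit of only 2 groups gave 4 at day 7 (254 of all genes) and 23 at day 3 (1097 of all genes). Without both libraries high in muscle markers 1 was called at day 1, 11 at day 3, 2 at day 7 and 5 over all 4 groups. The counts over all genes were then 277, 614, 165 and 400. The causes of these shifts were not tested. Replicate numbers did not pair the libraries: over 18 same-numbered pairs the correlation of deviations from group means ran from -0.34 to 0.23, with 3 over 0.1, and a library correlated best with its own number in 11 of 36 combinations. With a replicate block 2 were called at day 1, 13 at day 3, 7 at day 7 and 4 over all 4 groups. Kcnd3, Kcnj3 and Kcnk1 were then not called at day 3, nor Kcnip1 at day 7. The counts over all genes with the block were 363, 652, 323 and 502. The lowest genes, such as Kcnmb3 with 1 to 14 reads per library, allow no firm statement at this depth.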
